A study of Neurospora crassa with 10 samples.

Results

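Protein-coding genes of *Neurospora crassa* that stand next to each other with the left gene on the minus strand and the right gene on the plus strand are divergent, and the DNA between them lies upstream of both. The gene annotation deposited for the corrected assembly nc14 placed 2683 pairs of neighboring genes in this orientation. The genes did not overlap in 2565 of these pairs. The interval between the annotated gene ends was under 10000 bp in 2492 pairs, which are the divergent intervals described here. They were chosen from all 9723 pairs of neighboring protein-coding genes by strand and length alone. Since a gene has only 1 upstream neighbor, no gene was beside more than 1 divergent interval, and the 2492 intervals had 4984 genes beside them. That is 51.2% of the 9730 protein-coding genes. The intervals held 3304 kb in all.

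The series holds 10 in situ Hi-C datasets, which record contacts between DNA segments, from germinated conidia of the wild type strains N150 and N3752. Chromatin was cut with DpnII in 3 samples of N150 (labeled with 8, 15 and 23 PCR cycles), 1 of N3752 and a merged dataset. MseI was used for 1 sample of each strain and a merged dataset, and both enzymes for 1 sample of each strain. A sample is not always 1 library, since the paper describes more replicate libraries for several of these groups. No strain carried a mutation under study, and MseI contacts were used to place supercontigs in nc14. The annotation belongs to the assembly, not to a library, so its lengths have no replicate error and no sequencing depth.

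Transcription starts at the promoter upstream of a gene, where sequence-specific factors, the general transcription factors and RNA polymerase II assemble. In a divergent pair both promoters lie between the genes. Where the interval is short, they share the same stretch of DNA, and a factor bound there can act on either gene. In fungi, well known divergent pairs are those of the core histone genes and of genes of one nutrient pathway, such as the quinate (*qa*) genes of Neurospora. The interval after a gene in the convergent orientation holds terminators and no promoter of either gene, and a same-strand interval holds the terminator of one gene and the promoter of the next.

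Divergent intervals had a median length of 780 bp, with quartiles of 324 and 1717 bp, and 1 in 10 was under 198 bp. The median was 810 bp for the 4194 same-strand intervals under 10000 bp and 601 bp for the 1688 convergent intervals under 10000 bp. The distribution-free 95% intervals of these medians were 739 to 826 bp for divergent, 769 to 847 bp for same-strand and 561 to 645 bp for convergent intervals. They cover counting error only. The divergent and the same-strand medians therefore lay within each other's intervals, and the convergent median lay below both. No test was run over intervals, because neighboring intervals share a gene and the annotation is a full count of 1 genome.

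Of the 2492 divergent intervals, 934 were under 500 bp, or 37.5% (exact binomial 95% interval 35.6 to 39.4%). The share was 34.1% (32.7 to 35.6%) of same-strand and 45.0% (42.6 to 47.4%) of convergent intervals, beside a background of 37.3% over all 8374 intervals under 10000 bp. The divergent share was thus close to the background. Under 1000 bp were 1446 divergent intervals, or 58.0% (56.1 to 60.0%), against 57.3% of same-strand intervals, 65.2% of convergent intervals and 59.1% of all intervals. In the same-strand intervals the strand made little difference, with 33.6% under 500 bp where both genes were on the plus strand and 34.7% where both were on the minus strand.

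The orientations differed more in the shape of the distribution than in these shares. Among intervals without overlap, few divergent ones were very short. Under 100 bp were 50 divergent intervals, or 2.01% (1.49 to 2.64%), against 4.96% (4.32 to 5.66%) of same-strand and 14.3% (12.6 to 16.0%) of convergent intervals. This order held only among pairs without overlap. With overlapping pairs counted as under 100 bp, 6.44% of divergent, 6.10% of same-strand and 45.5% of convergent pairs were below that length. Divergent interval lengths gathered between 150 and 299 bp, where 460 intervals lay, or 18.5% (17.0 to 20.0%). In the same window were 12.6% (11.6 to 13.6%) of same-strand and 13.0% (11.4 to 14.7%) of convergent intervals. The fullest 50-bp bin was that from 200 to 249 bp for divergent intervals (160 intervals, 6.42%) and for same-strand intervals (184, 4.39%). For convergent intervals it was the first, from 0 to 49 bp (138, 8.18%). The window from 150 to 299 bp was set after these bins were seen, and its order turned when coding limits took the place of gene ends, with 0.422% of divergent, 0.972% of same-strand and 8.29% of convergent distances inside it. Under 2000 bp were 79.4% (77.8 to 81.0%) of divergent, 78.9% (77.7 to 80.1%) of same-strand and 82.9% (81.1 to 84.7%) of convergent intervals, so the convergent share was above the others and its interval did not overlap theirs.

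**Figure D1:**
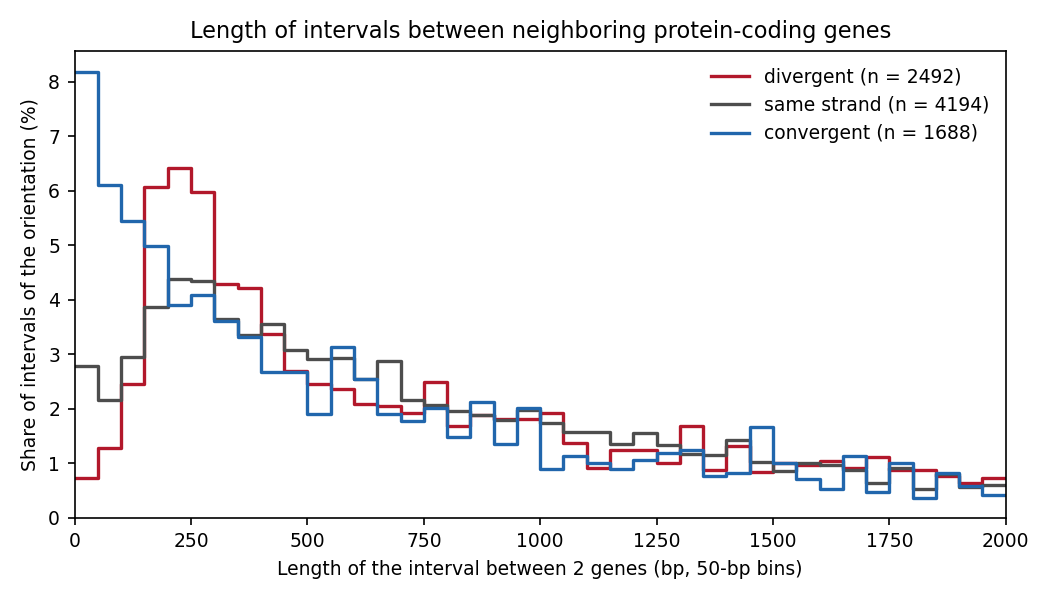
Share of intervals (y axis, percent of the intervals of one orientation) in 50-bp bins of length (x axis, 0 to 2000 bp) for divergent, same-strand and convergent intervals under 10000 bp. The divergent line is low below 100 bp and peaks at 6.42% between 200 and 249 bp, while the convergent line is highest in its first bin, at 8.18%.

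Pairs whose genes overlap were left out by the rule, and they were unequally spread. Gene spans overlapped in 118 of the 2683 divergent pairs (4.40%), in 1.17% of the 4359 same-strand pairs and in 36.1% of the 2681 convergent pairs. With overlapping pairs counted as under 500 bp, the share rose to 40.3% for divergent pairs, 34.9% for same-strand pairs and 65.0% for convergent pairs. At the other end, 73 divergent intervals reached 10000 bp or more, and 114 same-strand and 26 convergent intervals did so. Another annotated gene reached into 18 of the 2492 divergent intervals.

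The ends of an interval are only as good as the annotated ends of the untranslated regions (UTRs). A 5′ UTR was annotated, here meaning any distance between gene end and coding sequence, introns included, in both genes of 1845 divergent pairs (74.0%), in 1 gene of 499 pairs and in neither gene of 148 pairs. The median interval was 566 bp (523 to 620 bp) with 2 annotated 5′ UTRs, 1443 bp (1314 to 1598 bp) with 1, and 1369.5 bp (1209 to 1606 bp) with none. Of the same 3 groups, 46.6%, 13.0% and 6.76% were under 500 bp. The concentration between 150 and 299 bp was found where both 5′ UTRs were annotated. There it took in 24.1% of the intervals, against 2.81% with 1 annotated 5′ UTR and 0.676% with none. Intervals that face 2 annotated UTRs in the other orientations had fewer in this window, with 16.7% of the 2506 same-strand intervals.

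Measured between the coding sequences of the 2 genes, divergent pairs were a median of 1500.5 bp apart, with quartiles of 946 and 2481 bp. The shortest such distance was 59 bp. For the same-strand and convergent pairs of the length comparison, the medians were 1457 and 1269.5 bp. Only 87 divergent pairs (3.49%) had coding sequences less than 500 bp apart, against 5.01% of same-strand and 12.1% of convergent pairs. These values leave out pairs whose gene spans overlap, which were most frequent in the convergent orientation. With pairs chosen by coding limits in place of gene spans, the shares were 4.76%, 5.59% and 27.1%, and the convergent median was 859.5 bp. By the distance between coding sequences, the divergent intervals with 2, 1 and 0 annotated 5′ UTRs lay closer to each other, at medians of 1436, 1863 and 1369.5 bp. In the 1845 pairs with both 5′ UTRs annotated, the 2 UTRs together had a median of 715 bp, and they were longer than the interval between them in 1028 pairs (55.7%). The longer 5′ UTR of a pair had a median of 470 bp and the shorter one 212 bp. The lengths of the partners' 5′ UTRs were weakly related (Spearman's rho 0.12 over the 1845 pairs, which share the annotation method), and so were interval length and summed 5′ UTR length (rho 0.25).

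**Figure D2:**
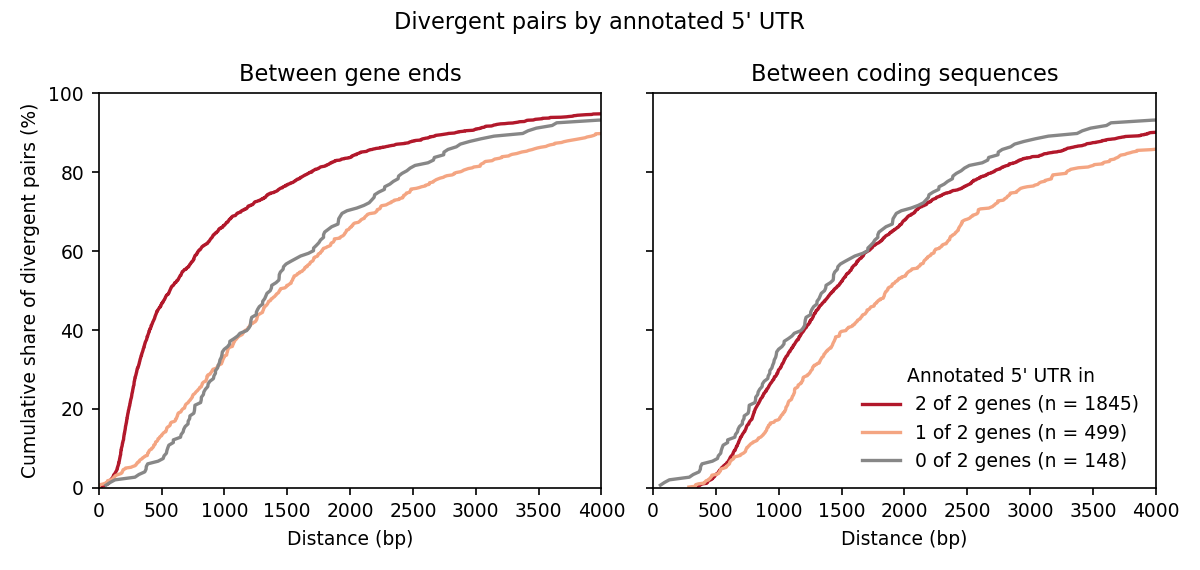
Cumulative share of divergent pairs (y axis, percent) by distance in bp (x axis, 0 to 4000) between gene ends (left) and between coding sequences (right), for pairs in which 2, 1 or 0 genes have an annotated 5′ UTR. On the left the pairs with 2 annotated 5′ UTRs lie far above the others (46.6% under 500 bp, against 13.0% and 6.76%), and on the right the curves lie closer together.

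The genes beside divergent intervals were of ordinary size. Their coding length had a median of 1269 bp (quartiles 744 and 1938 bp), against 1287 bp (783 and 1961 bp) for the 4194 genes with a same-strand neighbor upstream. The median number of exons was 2 in both groups, and 17.0% and 20.4% had a single exon. A 5′ UTR was annotated in 84.0% of the genes beside divergent intervals and in 72.8% of the genes with a same-strand neighbor upstream, with medians of 322 and 329 bp where present. The 1868 genes beside divergent intervals under 500 bp had an annotated 5′ UTR in 95.4%, against 82.5% of the 1432 genes with a same-strand neighbor less than 500 bp upstream. Their 5′ UTRs, at a median of 290 bp, were shorter than the 371 bp beside divergent intervals of 1000 bp and over. The order was the same with a same-strand neighbor upstream, at 262 bp under 500 bp and 426 bp at 1000 bp and over. It was thus not particular to divergent intervals. Intervals are measured from annotated gene ends, so an annotated 5′ UTR shortens them. Neither the share with a 5′ UTR nor its length is therefore independent of the interval length that formed these groups. Partners hardly resembled each other in coding length (rho 0.04 over 2492 pairs) or in exon number (rho 0.05).

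The 10 shortest divergent intervals were between 0 and 20 bp long. NCU02028 and NCU02027 on linkage group (LG) I abutted, with NCU02028 ending at base 1632188 and NCU02027 starting at base 1632189 of nc14, and their 5′ UTRs of 432 and 315 bp put 747 bp between the coding sequences. Intervals of 1 bp separated NCU06196 from NCU06197 and NCU16686 from NCU08974, both on LG III. In each of these, only 1 gene had an annotated 5′ UTR (1082 bp in NCU06196 and 780 bp in NCU08974). On LG IV, NCU06610 and NCU06611 were 7 bp apart.
Among the shortest were 3 genes with a symbol. The gene *pdx-3* (NCU03068) had 10 bp to NCU03067 on LG I. The carotenoid gene *al-2* (NCU00585, which encodes phytoene synthase) had 11 bp to NCU00584 on LG I (8113137 to 8113147). Its 5′ UTR of 1100 bp and the 516 bp of its partner put the coding sequences 1627 bp apart. The adenine biosynthesis gene *ad-3A* (NCU03166) had 20 bp to NCU03167, with coding sequences 386 bp apart. The other pairs were NCU00956 and NCU00955 (11 bp), NCU06125 and NCU06124 (13 bp) and NCU09818 and NCU09819 (20 bp). In 6 of the 10 pairs both genes had an annotated 5′ UTR, and all 10 had 386 to 1627 bp between the coding sequences.

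The limits of 500, 1000 and 10000 bp cut through a continuous range. Just under 500 bp were NCU06979/NCU06980 (497 bp), NCU06311/NCU06310 (498 bp) and NCU00100/NCU00101 (499 bp). Just over it were NCU08564/*scon-2* and NCU09070/*dbf2* (500 bp each) and NCU08732/*set-9* (501 bp). The longest divergent intervals kept were NCU11220/NCU17150 (9558 bp) and NCU04830/NCU04832 (9649 bp) on LG VI and *col-26*/*ccg-14* (9667 bp) on LG V. The first left out were NCU00999/NCU01000 (10085 bp), NCU02959/NCU02957 (10148 bp) and *xlr-1*/NCU06973 (10736 bp). The genes *col-26* and *xlr-1* encode transcription factors of carbohydrate use.

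Among the 2492 pairs, both genes had a symbol in the RefSeq table in 38, and 30 of these are given here from the shortest interval up. In 10 of the 30 the interval was under 500 bp. The shortest, 106 bp on LG I, separated *tca-13* from *cyt-18*, the mitochondrial tyrosyl-tRNA synthetase that also acts in intron splicing. The ubiquitin fusion gene *ubi::crp-6* and the ribosomal protein gene *crp-5* were 151 bp apart on LG VII, and *pan-3* and *csb* 162 bp apart on LG III. The proteasome gene *rpn-9* and *nuo40*, a subunit of respiratory complex I, shared 167 bp on LG VII (2718318 to 2718484). Proteasome genes also occurred in a further 2 of these pairs, with 296 bp between *rbg-40* and *rpn-1* and 323 bp between the histone deacetylase gene *hda-3* and *rpn-11*, the deubiquitinating subunit. The complex I gene *nuo9.8* had 288 bp to the histone acetyltransferase gene *hat-6*. Under 500 bp were also *ilv-6*/*stk-32* (343 bp), *ndk-1*/*gh31-2* (419 bp) and *tca-8*/*elp3* (423 bp). Apart from the ribosomal protein pair, the partners of these 10 pairs carried symbols of different families.

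Some pairs of related genes had intervals of over 500 bp, on either side of the divergent median of 780 bp. They are single examples, since in 1930 of the 2492 pairs neither gene had a symbol. The vitamin B6 genes *pdx-2* and *pdx-1*, which encode the 2 parts of one synthase complex, were 809 bp apart on LG IV (1607396 to 1608204), and their coding sequences 1993 bp apart. The mating-type genes *matA-3* and *matA-2* were 623 bp apart on LG I, and the fatty acid synthase genes *cel-1* and *cel-2*, outside the first 30, were 2474 bp apart on LG IV. The histone genes *hH3* and *hH4-1* on LG II had 1702 bp between them (2875648 to 2877349), with 5′ UTRs of 316 and 119 bp. Their interval was close to the upper quartile of divergent intervals (1717 bp).

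The other core histone pair was not a divergent interval by the rule. The genes *hH2A* (minus strand) and *hH2B* (plus strand) of LG VII had 2168 bp between their ends, but NCU02436, a gene of 402 bp with a coding sequence of 276 bp and no annotated 5′ UTR, was annotated between them on the minus strand. The member was therefore NCU02436/*hH2B*, with 691 bp, and *hH2A* had NCU02436 as a same-strand neighbor 1075 bp upstream. The histone variant gene *hH3v* had the shortest interval among the histone genes, 173 bp to NCU00146 on LG III. In all, 4 of the 9 genes with a histone symbol were beside a divergent interval, against 51.2% of all protein-coding genes.

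The *qa* cluster of LG VII, whose 7 genes serve the use of quinic acid as a carbon source, held 3 divergent intervals. The activator gene *qa-1F* and the repressor gene *qa-1S* were 689 bp apart (2043713 to 2044401). The quinate dehydrogenase gene *qa-3* and the dehydroshikimate dehydratase gene *qa-4* were 1544 bp apart (2052046 to 2053589), and the dehydroquinase gene *qa-2* and *qa-X* were 762 bp apart (2056176 to 2056937). In each pair, the left gene had an annotated 5′ UTR (419, 403 and 431 bp) and the right gene had none. Between the coding sequences lay 1108 bp for *qa-1F*/*qa-1S*, 1947 bp for *qa-3*/*qa-4* and 1193 bp for *qa-2*/*qa-X*. The permease gene *qa-Y*, the only gene of the cluster outside these pairs, was 1009 bp from *qa-1S* on the same strand and overlapped the end of *qa-3*.

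The remaining pairs of the 30 had 603 to 1879 bp between their genes. The longest was *fkr-2*/*hsp80* (1879 bp), where *hsp80* encodes the Hsp90 chaperone. The mitochondrial leucyl-tRNA synthetase gene *leu-5* had 603 bp to *nap-1*, which encodes a nucleosome assembly protein. The catalase gene *cat-4* had 656 bp to the amino acid permease gene *pmb*, but with 5′ UTRs of 1455 and 698 bp the coding sequences were 2809 bp apart. Intervals of similar size separated *gcy-1*/*cut-1* (661 bp), *sec5*/*tca-4* (699 bp) and *stt4*/*pcb-6* (909 bp). The gene of the COT-1 kinase, *cot-1*, which controls hyphal tip growth, had 1094 bp to *tim54*. The circadian and light-response gene *wc-2* had 1343 bp to the DNA repair gene *uvs-6*, with a 5′ UTR of 1056 bp in *wc-2*. Further members were *rgf1*/*vma-11* (1421 bp), *crn*/*nst-5* (1424 bp), *tim17*/*arg-15* (1708 bp), *for*/*pep4* (1746 bp) and *gul-1*/*gle-1* (1802 bp). The gene of the quelling RNA-dependent RNA polymerase, *qde-1*, had 1623 bp to *sah-3*.

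**Figure D3:**
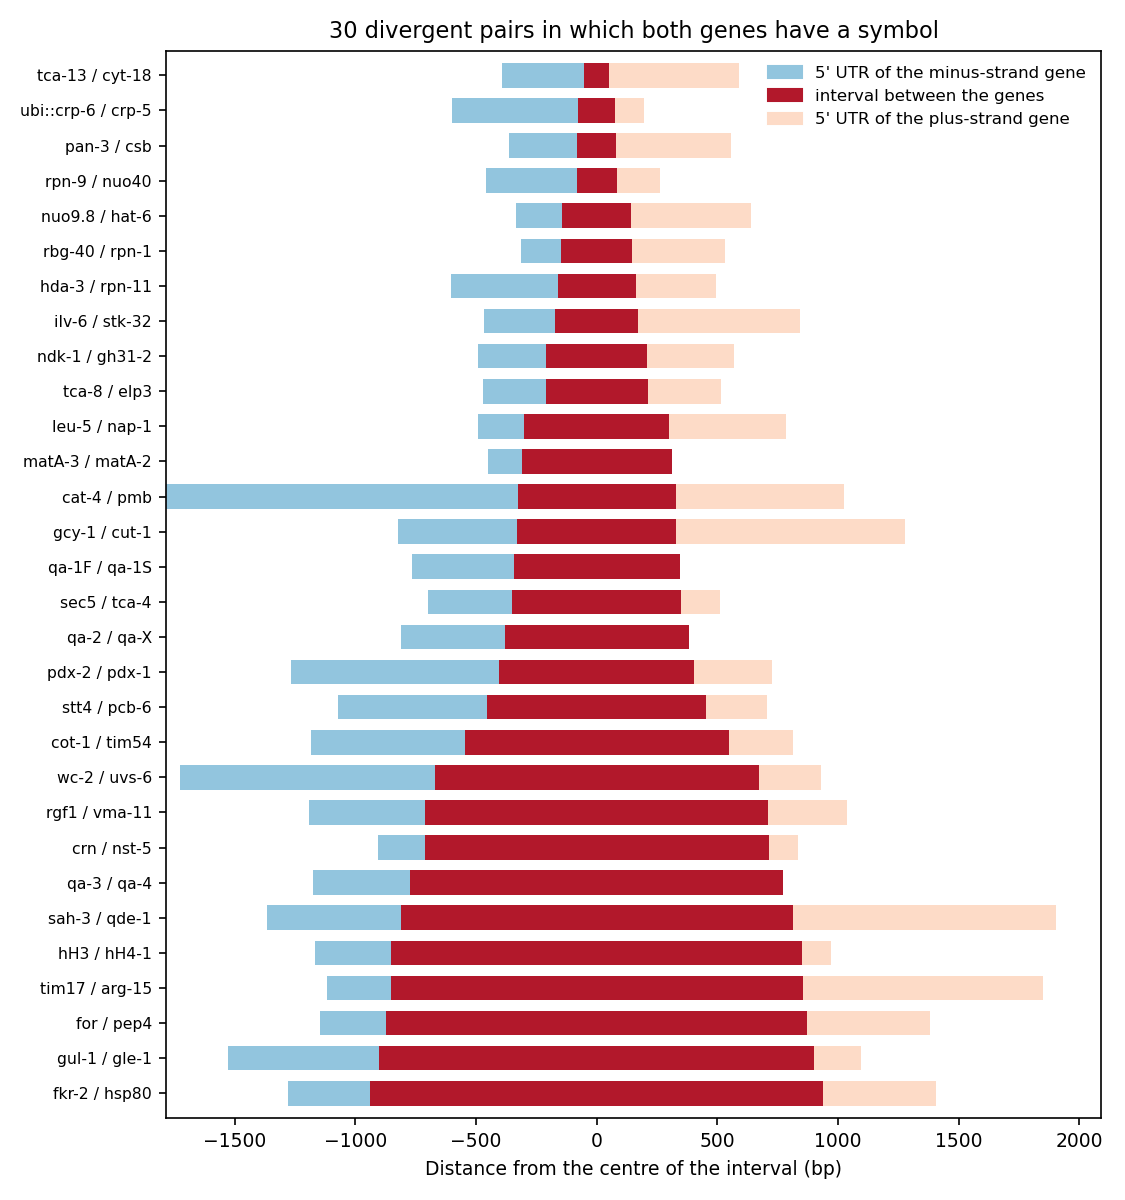
Map of the 30 divergent pairs with 2 symbols and the shortest intervals, one bar per pair, with distance in bp from the centre of the interval on the x axis. The interval between the gene ends is drawn in the middle, with the 5′ UTR of the minus-strand gene on its left and that of the plus-strand gene on its right. Intervals run from 106 bp (*tca-13*/*cyt-18*) to 1879 bp (*fkr-2*/*hsp80*), and the right genes of the *qa* pairs show no 5′ UTR.

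Genes were also grouped into 15 classes by their symbols, which 1118 of the 9730 genes carry. Among all protein-coding genes 51.2% were beside a divergent interval, and 19.2% beside one under 500 bp. For genes with a symbol these shares were 53.7% and 20.1%. Several classes lay above both shares, some of them subunits of large complexes and others not. Of the 8 ribosomal protein genes with a *crp* symbol, 7 were beside a divergent interval, in each case one under 500 bp. As *ubi::crp-6* and *crp-5* share theirs, these were 6 intervals, with a median of 187.5 bp (162 bp over the 7 genes) and a range of 55 bp (*crp-2*) to 362 bp (*crp-15*). Of the 29 genes for complex I, which feeds electrons from NADH into the respiratory chain, 22 were beside a divergent interval and 17 beside one under 500 bp, with a median of 226.5 bp. The shortest of these was 23 bp (*nuo18.4*), followed by 92 bp (*nuo24*) and 114 bp (*nuo12.3*), and the longest was 2051 bp (*nuo6.6*). The 5 complex I genes with a same-strand neighbor upstream had a median of 433 bp.
The vacuolar ATPase, the proton pump of the vacuole, had 12 of its 13 genes beside a divergent interval, 9 of them under 500 bp. Their median was 286.5 bp, and the shortest interval was that of *vma-2* (80 bp) and the next that of *vma-16* (145 bp). The proteasome had 12 of 17 genes beside a divergent interval and 8 under 500 bp (median 309.5 bp), from 155 bp for *rpn-7* to 5768 bp for *rpn-5*. Of the 20 peroxin genes, which serve peroxisome biogenesis, 14 were beside a divergent interval and 9 beside one under 500 bp (median 380 bp), with the shortest at *pex14* (188 bp). These classes are small. Apart from the ribosomal proteins and the proteasome they were formed after the symbols were seen, and no test of enrichment was made.

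Glycoside hydrolases and kinases were near the background or below it. Many glycoside hydrolases cleave polysaccharides such as cellulose. Membership of this class was set by a *gh* symbol alone, whatever the activity of the product. Of its 79 genes, 37 (46.8%) were beside a divergent interval and 12 (15.2%) beside one under 500 bp, with a median of 1130 bp. Of 53 genes for protein kinases with an *stk* symbol, 27 (50.9%) and 9 (17.0%) were, with a median of 981 bp. Of 10 heat shock genes, 6 (60.0%) were beside a divergent interval, which is above the background, but only 1 (10.0%) beside one under 500 bp, with a median of 1327 bp. Of 60 genes named for amino acid requirements, *leu-5* included, 35 were beside a divergent interval and 19 beside one under 500 bp (median 472 bp), and of 33 DNA repair genes these were 24 and 10 (573.5 bp), so both classes were above the background. Mitochondrial import (14 of 21 genes, 576.5 bp), the tricarboxylic acid cycle (7 of 16, 423 bp) and the COP9 signalosome (3 of 7, 600 bp) completed the classes. In these, 33.3%, 25.0% and 14.3% of the genes were beside a divergent interval under 500 bp. The COP9 signalosome, also a complex, was below the background in both shares.
The annotation of 5′ UTRs differed between classes, and its part in these values was not tested. A 5′ UTR was annotated in every gene of the ribosomal protein, complex I, vacuolar ATPase and peroxin classes and in 94.1% of the proteasome genes, against 70.9% of the glycoside hydrolase genes and 78.7% of all genes. It was also annotated in every gene of the heat shock, tricarboxylic acid cycle, COP9 signalosome, histone and amino acid classes. Of these, the heat shock genes had the longest median interval of the 15 classes, and the cycle (43.8%), the signalosome (42.9%) and the histones (44.4%) had shares beside a divergent interval below the background. Among all genes with an annotated 5′ UTR, 54.7% were beside a divergent interval and 23.3% beside one under 500 bp, and among those without one 38.4% and 4.10%. With pairs in which both 5′ UTRs were annotated, the median over genes was 156.5 bp for ribosomal protein genes, 223 bp for complex I and 286.5 bp for the vacuolar ATPase, against 478 bp for glycoside hydrolases and 566 bp for all genes. Between coding sequences the medians were 566, 817, 818 and 1792 bp for these classes in the same order, and 1500.5 bp for all genes. These medians include pairs in which a 5′ UTR was not annotated.

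**Figure D4:**
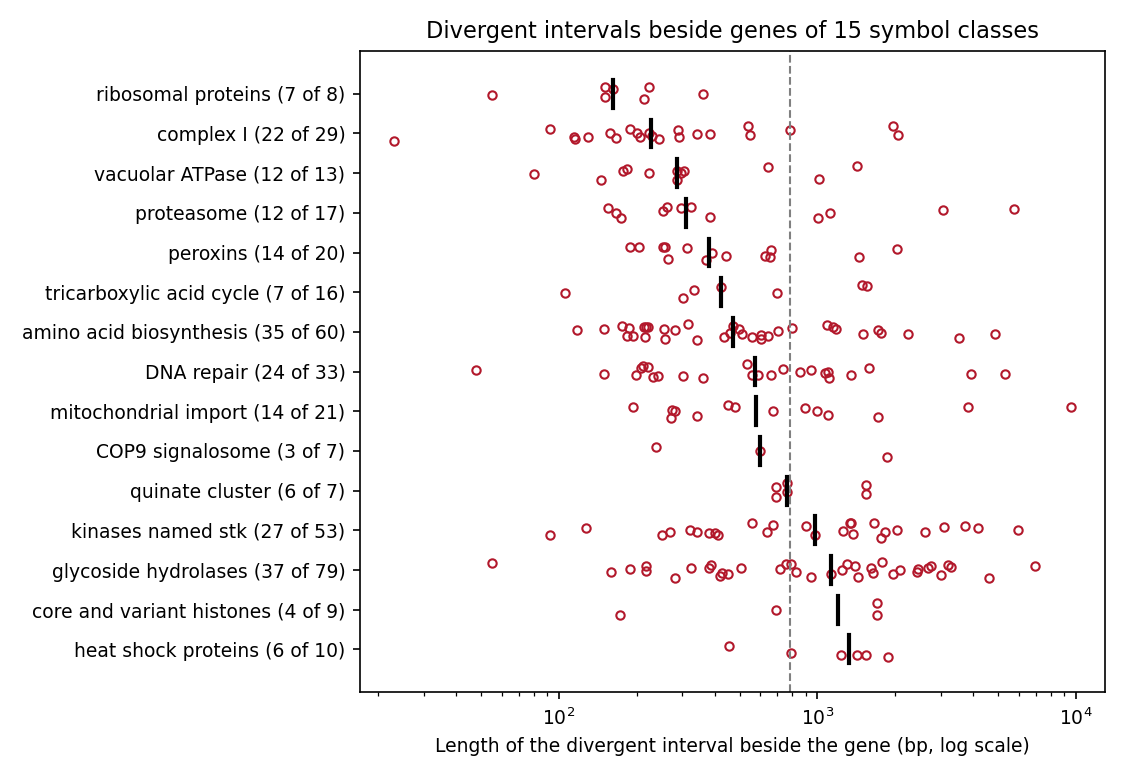
Length of the divergent interval (x axis, bp, log scale) beside each gene of 15 symbol classes, with 1 circle per gene, a black bar at the class median and a dashed line at the median over all genes beside a divergent interval (780 bp). Labels give the genes beside a divergent interval and the genes in the class. Medians over genes run from 162 bp (ribosomal proteins) to 1327 bp (heat shock proteins).

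Divergent intervals numbered 616 on LG I, 395 on LG V, 375 on LG IV, 329 on LG III, 275 on LG II, 258 on LG VI and 244 on LG VII. LG VII had the fewest, although its 1047 protein-coding genes outnumbered those of LG II (1028) and LG VI (988). The share of protein-coding genes beside a divergent interval was between 46.6% on LG VII and 53.5% on LG II. Median lengths were 659 bp on LG V, 714 bp on LG I, 790 bp on LG III, 798 bp on LG II, 843 bp on LG VII, 904 bp on LG VI and 909 bp on LG IV. The 95% interval of the LG V median, 530 to 828 bp, overlapped that of every other LG, LG IV (760 to 1037 bp) included. Under 500 bp were 44.1% (39.1 to 49.1%) of divergent intervals on LG V and 30.7% (25.0 to 36.9%) on LG VII, the highest and the lowest share. On LG IV and LG VII the divergent share under 500 bp, 34.1% and 30.7%, was below that of same-strand intervals (37.1% and 33.2%), and on the other 5 LGs it was above.

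**Figure D5:**
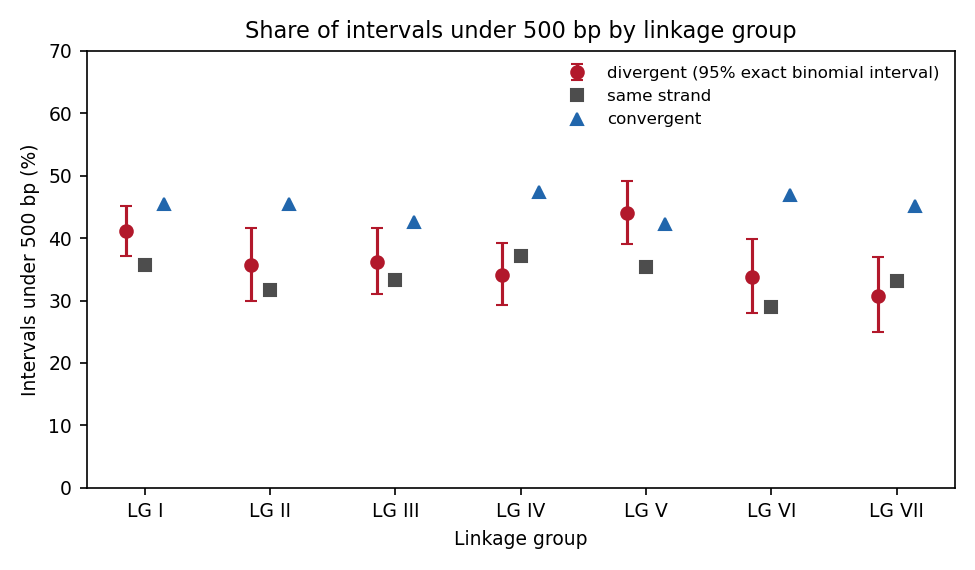
Share of intervals under 500 bp (y axis, percent) on each LG for divergent intervals (circles, with exact binomial 95% intervals, counting error only), same-strand intervals (squares) and convergent intervals (triangles). The divergent share was highest on LG V (44.1%) and lowest on LG VII (30.7%).

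The extremes differed widely within each LG. The shortest divergent interval was 48 bp on LG II (NCU09466/NCU09467), 23 bp on LG V (NCU07755/NCU07754), 55 bp on LG VI (*gh10-4*/NCU12065) and 13 bp on LG VII (NCU06125/NCU06124), and those of LG I, LG III and LG IV are given above. The longest under 10000 bp was 9489 bp on LG I, between NCU00687 and the casein kinase gene *ck-1a*, whose product acts in the circadian clock. On LG II it was 8188 bp (NCU16567/NCU01555), on LG III 9548 bp (NCU00197/*tim9*), and on LG VII 7694 bp (NCU09437/NCU09438). On LG IV it was 8421 bp, between *cre-1*, the regulator of carbon catabolite repression, and NCU08806. Each of the 7 longest intervals, those of LG V and LG VI included, stood beside at least 1 annotated 5′ UTR. Some were long, such as the 1825 bp of NCU00687 and the 1130 bp of *ck-1a*. On LG II only NCU01555 had one, of 17 bp, and on LG III only *tim9*, of 172 bp.

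Near chromosome ends and near the longest stretch without genes on an LG, divergent intervals were not shorter or longer by more than their counting error. Within 100 kb of an LG end, 95 divergent intervals had a median of 810 bp (600 to 965 bp) and 30.5% (21.5 to 40.8%) were under 500 bp. Within 100 kb of the longest stretch without genes, 69 divergent intervals had a median of 739 bp (502 to 1118 bp) and 36.2% (25.0 to 48.7%) were under 500 bp. Elsewhere, the 2328 others had 781 bp (741 to 829 bp) and 37.8% (35.8 to 39.8%).

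The intervals were set by protein-coding genes, and genes for RNAs can lie inside them. In the RefSeq gene order of assembly NC12, the genes of 2491 of the 2492 divergent pairs were neighbors among protein-coding genes. Between them lay at least 1 gene for a transfer RNA, ribosomal RNA or other noncoding RNA, or a tRNA pseudogene, in 98 pairs (3.93%, 3.21 to 4.77%). The share was 6.35% (5.63 to 7.13%) for same-strand and 11.1% (9.64 to 12.7%) for convergent neighbors. Of the 98, 52 held a tRNA gene, 40 an ncRNA gene and 7 an rRNA gene. These 98 intervals had a median length of 2543.5 bp, against 751 bp for the other pairs. Only 5 of the 98 were under 500 bp.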

How the data were processed

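The authors deposited 1 gene annotation of assembly nc14, as start and end positions in bp (81158 records, 9866 genes). How gene models reached nc14: not given in the sources used here. Neither contact matrices nor sequence were used here. No column holds values of single samples. Protein-coding genes were those with CDS records, and a gene spanned all its features. Genes were sorted by start, and the interval was counted from the end of one to the start of the next. Distribution-free intervals of medians and exact (Clopper-Pearson) intervals of shares are at 95%. Of the 9730 genes, 9729 had an entry in the RefSeq table of NC12, each on the same LG. The table gave symbols, RNA genes and neighbor order, and no NC12 position was used. It holds no product names, so classes rest on symbols. Planned classes without such symbols and the planned promoter composition were not run. Members and lists were chosen with earlier results of these data known. Named are the histone and *qa* pairs, the 10 shortest intervals, those nearest the limits, up to 30 pairs with 2 symbols, and the extremes of each LG. The *cel-1*/*cel-2* pair and the single genes of symbol classes were picked with their values in view. The code was tested on simulated chromosomes. Python 3.11.15, numpy 2.4.6, pandas 2.3.3, scipy 1.17.1 and matplotlib 3.10.9 were used.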

Additional observations from a re-analysis of the deposited data

How the results depend on the processing

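Across 17 alternatives, 58 of 67 recomputed values stayed within 1.5 times the count of 2492 intervals or inside the 95% interval of the reported value. These include all 28 values without 1 LG in turn, and those without a length limit, without intervals crossed by another gene, with 1 transcript per gene, with all annotated genes, without the 322 genes of under 300 bp of coding sequence and without 4 genes of LG I placed out of order. The limit for counts was wide, since even the 1845 intervals with a 5′ UTR annotated on both sides stayed within it. Leaving out 1 LG also kept most of the same intervals, so the 58 values are not independent checks. With coding limits in place of gene spans, the median was 1440 bp, 4.76% were under 500 bp and 29.9% under 1000 bp. The same-strand share under 500 bp (5.59%) was then above the divergent one, and the convergent share was 27.1%. From 150 to 299 bp the same-strand share was also above the divergent one (0.972% against 0.422%). With a 5′ UTR annotated on both sides, the divergent median and shares under 500 and 1000 bp were 566 bp, 46.6% and 66.6%, and the coding sequences were 1436 bp apart. A limit of 5000 bp gave 60.5% under 1000 bp. Counting overlapping pairs as under both lengths, an alternative added after the data were seen, gave 40.3% under 500 bp, and the divergent share under 100 bp (6.44%) was then above the same-strand one (6.10%). The largest shifts came with the choice of gene or coding limits. No paired analysis was possible because no library has values of its own in the annotation.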

Other observations

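Divergent and convergent intervals can follow each other in turn. The longest unbroken series, counting only intervals without overlap and under 10000 bp, had 10 intervals between 11 genes and occurred at 2 places, both on LG II. The first ran from NCU09605 to NCU16500 and held 5 divergent intervals of 2082, 1539, 219, 1716 and 904 bp, with *hsp70-1*, a heat shock chaperone gene, beside that of 1539 bp and the kinase gene *stk-55* beside that of 904 bp. The second ran from NCU08503 to NCU08491, with divergent intervals from 103 to 2629 bp.

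The far ends of the genes were also compared by what lay upstream. Of the 4979 genes beside a divergent interval with a downstream neighbor, 56.8% faced a convergent gene and 23.5% overlapped it. For genes with a same-strand neighbor upstream these were 53.5% and 16.0%, and for genes beside a divergent interval under 500 bp 58.3% and 31.2%. The shares over all genes, and over genes with a same-strand neighbor less than 500 bp upstream, were not computed. These values therefore do not show a trait particular to genes beside divergent intervals. Of all 9723 pairs of neighbors, 2681 were convergent, 967 of them with overlap, and both genes of such a pair face a convergent gene. A 3′ UTR was annotated in 84.5% of genes beside a divergent interval and 75.7% of genes with a same-strand neighbor upstream. It was annotated in 94.6% of genes beside a divergent interval under 500 bp, against 80.1% of all protein-coding genes. With a same-strand neighbor less than 500 bp upstream, the share was 85.5%. The part of UTR annotation in these overlaps was not tested.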
